A study of Mus musculus with 18 samples.

Results

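The genes described here were 10 components of the LIF-STAT3 signalling pathway and its feedback inhibitors, namely the receptor chains Lifr and Il6st, the kinases Jak1 and Jak2, the transcription factor Stat3, the inhibitors Socs1, Socs2, Socs3 and Cish, and the phosphatase Ptpn11. They were found by their symbol in the array's annotation, and each gene was followed through a single probe set, the brightest on average of those that name this gene and no other. The 10 genes were part of 19935 genes named in this way on the array. There were 12 probe sets for them, because Socs2 and Socs3 had 2 each. The set was chosen by known high Socs3 values in single embryos, so the values of Socs3 are a description here and received no p.

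Expression was measured in 18 individual 2-cell embryos, each on its own Affymetrix Mouse Gene 1.0 ST array. Wild-type females of strain 129SVE were naturally mated either to wild-type males (fathers WT1, WT2 and WT3) or to Parg(110)-/- males (fathers PargA, PargB and PargC), and 3 embryos of each father were profiled. This gave 9 WT embryos and 9 Parg(110)-/+ embryos, and an embryo is written as its father and number, as in PargA-2. The Parg(110) allele lacks exons 2 and 3 of Parg, the gene of poly(ADP-ribose) glycohydrolase, the enzyme that breaks down poly(ADP-ribose). Since every Parg(110)-/+ embryo was itself heterozygous, an effect of the father's sperm and an effect of the embryo's own genotype cannot be told apart. The question of the comparison was whether progeny of Parg(110)-/- males differ in expression from progeny of wild-type males. All values are log2 RMA values (robust multichip average), and a difference of 1 is a doubling. Quantile normalization removes differences in total RNA, so a value is relative to the other genes of the same embryo. Of 18 listed genes of the 2-cell stage 9 were measured, and Zscan4c, Zscan4d and Zscan4f were among those not measured. Of the 9 measured, 8 (among them Zfp352, Tdpoz1 and Tcstv3) lay at or above the median of all probe set means. So did 14 of 15 maternal genes of the oocyte (such as Gdf9 and Zp3). None of 8 blood cell markers, 4 of 17 cumulus, granulosa and oviduct markers and 3 of 9 spermatid markers did. The listed haemoglobin genes were not measured.

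Leukaemia inhibitory factor (LIF) binds LIFR, which pairs with gp130, the product of Il6st, a chain shared by cytokines of the interleukin-6 family. The receptor-bound kinases JAK1 and JAK2 then phosphorylate STAT3, which enters the nucleus and switches on target genes. Socs3 is a target of this kind, and its protein binds gp130 and the JAKs and shuts the signal off again. LIF is the cytokine that maintains mouse embryonic stem cells, and Lif from the uterus is needed for implantation of the mouse blastocyst.

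**Figure D1:**
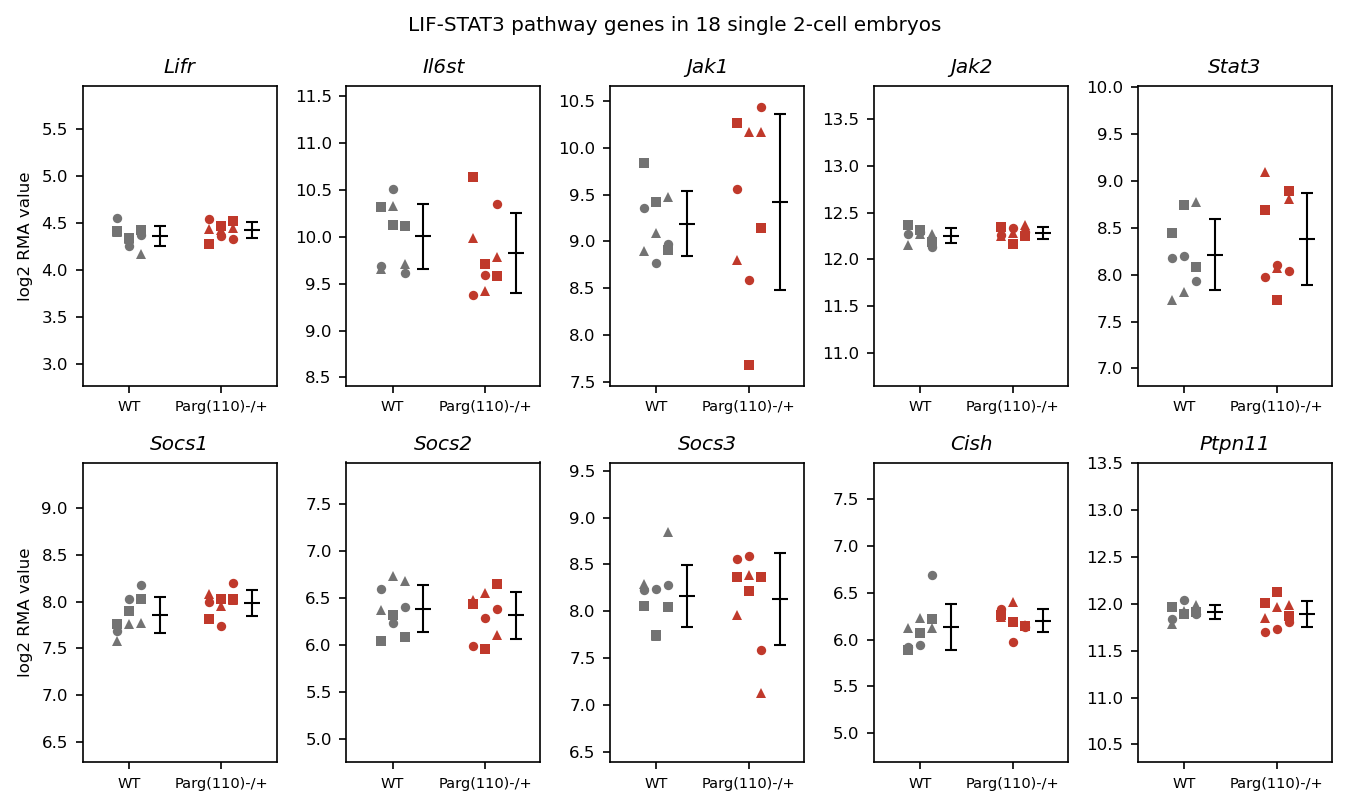
Log2 RMA values of the 10 genes in the 9 WT embryos (grey) and the 9 Parg(110)-/+ embryos (red), each gene through its brightest probe set. Each point is an embryo, circles stand for fathers WT1 and PargA, squares for WT2 and PargB and triangles for WT3 and PargC, and the bars give mean ± SD. The axes differ between genes and do not start at 0, but each spans a similar width. The groups overlap for all 10 genes, and Jak1 is spread most widely among the Parg(110)-/+ embryos, from 7.68 to 10.43.

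None of the 9 genes tested was called between genotypes, and Socs3 was not tested. Through the brightest probe sets, receptor, kinase, STAT and inhibitor genes all had overlapping ranges in WT and Parg(110)-/+ embryos, and the differences of the group means lay between -0.18 (Il6st) and 0.23 (Jak1) on the log2 scale. With limma over all 28815 probe sets, 0 of the 9 genes tested (all but Socs3) passed an adjusted p of 0.1, and 0 passed an unadjusted p of 0.05. The share of all probe sets called was 0%, and 3018 (10.5%) passed the unadjusted level. The adjusted p of the 9 genes ranged from 0.549 (Socs1) to 0.896 (Ptpn11). The median difference of the 10 genes was 0.045, with 6 higher and 4 lower in Parg(110)-/+ embryos, and that of all probe sets was 0.051, with 19337 higher and 9478 lower. When every array was shifted to the same median, the median of the 10 genes became -0.011 with 5 higher and 5 lower, and that of all probe sets -0.0051.

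Lifr, the chain that binds LIF itself, was read by probe set 10422822 (gene at chr15:7090610-7197489, RefSeq positions of GRCm38.p6 for all genes). Its lowest, median and highest values were 4.17, 4.38 and 4.56 in the 9 WT embryos and 4.28, 4.44 and 4.55 in the 9 Parg(110)-/+ embryos. All 9 Parg(110)-/+ values lay within the WT range. The difference, Parg(110)-/+ minus WT, was 0.06 ± 0.05 (SE), with an adjusted p of 0.667 by limma. The Lifr mean, like those of Socs2 and Cish, was below the median of all probe set means (6.47), and no detection call was at hand to say whether its RNA was present.

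Il6st, which encodes gp130 (probe set 10407173, chr13:112464070-112506860), was lower in WT1-3 (9.61), WT3-1 (9.65), WT1-1 (9.68) and WT3-3 (9.71) than in the other WT embryos, which lay between 10.12 and 10.51. The 9 Parg(110)-/+ embryos had a lowest value of 9.38, a median of 9.71 and a highest value of 10.64, against a WT median of 10.12. PargA-1 (9.38), PargC-2 (9.42), PargB-3 (9.59) and PargA-2 (9.59) were below every WT embryo and PargB-1 (10.64) above every one. At least 4 embryos below every WT embryo were found for 2.16% of all probe sets, and at least 5 outside the WT range for 8.61%. The difference in means was -0.18 ± 0.18 (95% interval -0.55 to 0.19, adjusted p = 0.704 by limma), so that a halving or a doubling lies outside the interval.

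Jak1, the kinase that gp130 needs to signal (probe set 10514668, chr4:101151974-101265282), was spread more widely among Parg(110)-/+ embryos than among WT embryos. Embryos 1 to 3 of father WT1 had values of 9.35, 8.77 and 8.97, those of WT2 had 9.83, 9.42 and 8.91, and those of WT3 had 8.89, 9.09 and 9.47. In the same order, the PargA embryos had 9.56, 8.59 and 10.43, the PargB embryos 10.26, 7.68 and 9.14, and the PargC embryos 8.80, 10.17 and 10.17. PargA-3, PargB-1, PargC-2 and PargC-3 lay above every WT embryo and PargA-2 and PargB-2 below every one. Each Parg(110)-/- father thus had at least 1 embryo above the WT range, and PargA and PargB also had 1 below it. From the lowest to the highest embryo, Jak1 differed 6.72-fold over all 18 embryos and 2.10-fold within WT. The SD was 0.35 in WT and 0.94 in Parg(110)-/+ embryos, a ratio of 2.68, and 96.6% of all probe sets had a smaller ratio (median of all, 1.02). At least 4 Parg(110)-/+ embryos lay above every WT embryo for 10.2% of all probe sets, and at least 6 outside the WT range for 3.66%. With values on both sides of WT, the difference in means was 0.23 ± 0.32 (adjusted p = 0.796 by limma, 95% interval -0.44 to 0.90). It was 0.45 without PargB-2 and 0.088 without the embryos of PargC.

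Jak2, the partner kinase (probe set 10462363, chr19:29251803-29313095), had the smallest spread of the 10 genes. Its values ran from 12.13 to 12.37 in WT embryos (median 12.27) and from 12.17 to 12.36 in Parg(110)-/+ embryos (median 12.28), and no Parg(110)-/+ embryo left the WT range. The highest embryo exceeded the lowest 1.18-fold. Spread depended on level, since the median SD of probe sets within 0.5 of the Jak2 mean was 0.14, against 0.53 for those within 0.5 of the Jak1 mean. The SD of Jak2 over 18 embryos was 0.07, and 3.41% of the probe sets within 0.5 of its mean had a smaller SD. That share was 12.5% with equal array medians (SD 0.093) and 23.5% after a second quantile normalization (SD 0.096). The difference was 0.03 ± 0.04 (adjusted p = 0.789 by limma), and it turned to -0.026 with equal array medians.

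**Figure D2:**
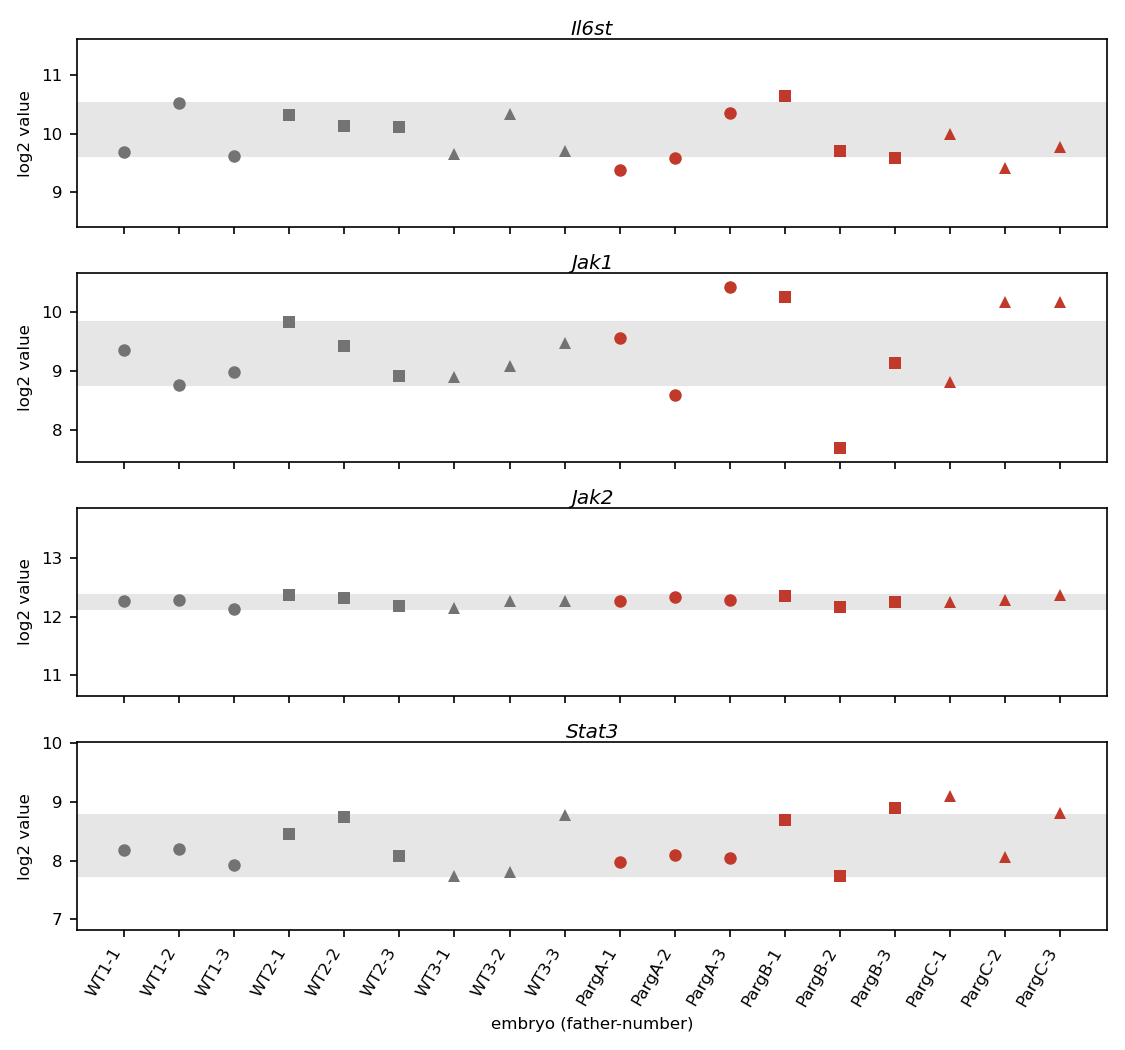
Log2 RMA values of Il6st, Jak1, Jak2 and Stat3 in each of the 18 embryos, WT in grey and Parg(110)-/+ in red, with the range of the 9 WT embryos shaded. All 4 panels span similar widths. Jak2 points stay within their band, 6 of 9 Parg(110)-/+ embryos leave the Jak1 band, and PargB-3, PargC-1 and PargC-3 lie above the Stat3 band.

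Stat3, the transcription factor at the end of the relay (probe set 10391301, chr11:100886806-100939594), gave 8.18, 8.20 and 7.93 in the WT1 embryos, 8.45, 8.75 and 8.08 in the WT2 embryos and 7.73, 7.81 and 8.77 in the WT3 embryos. It gave 7.98, 8.10 and 8.04 in the PargA embryos, 8.69, 7.73 and 8.89 in the PargB embryos and 9.10, 8.07 and 8.81 in the PargC embryos. PargC-1, PargB-3 and PargC-3 lay above every WT embryo and none below. At least 3 embryos above every WT embryo were found for 19.8% of all probe sets. The genotype difference was 0.17 ± 0.20 (95% interval -0.25 to 0.58, adjusted p = 0.761 by limma), and without the embryos of PargC it was 0.027. For the embryos of PargC alone against WT it was 0.45 ± 0.28 (adjusted p = 0.818).

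Among the inhibitors, Socs1 (probe set 10437668, chr16:10783808-10785536), whose protein blocks JAK kinases directly, ran from 7.57 through a median of 7.77 to 8.18 in WT embryos and from 7.74 through 8.02 to 8.19 in Parg(110)-/+ embryos. PargA-3 alone exceeded every WT embryo, and did so by under 0.1. At least 1 embryo did so for 60.7% of all probe sets. The difference of 0.13 ± 0.08 had the smallest adjusted p of the 9 genes tested (0.549 by limma). The SD of Socs1 over 18 embryos was 0.18, and the median SD of probe sets within 0.5 of its mean was 0.45.

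Cish, the founding member of the SOCS family and best known as an inhibitor of STAT5 signalling (probe set 10588577, chr9:107296659-107302784), lay between 5.88 and 6.69 in WT (median 6.12) and between 5.97 and 6.40 in Parg(110)-/+ embryos (median 6.19). WT1-3 at 6.69 stood apart from the other WT embryos, the next of which was at 6.23. All Parg(110)-/+ embryos lay within the WT range, and the difference was 0.07 ± 0.09 (adjusted p = 0.786 by limma).

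Ptpn11 encodes SHP2, a phosphatase that binds gp130 at the site that SOCS3 also uses and links the receptor to the Ras-MAP kinase pathway (probe set 10533285, chr5:121130533-121191397). Its values ran from 11.78 to 12.04 in WT (median 11.91) and from 11.69 to 12.12 in Parg(110)-/+ embryos (median 11.87). PargA-1 (11.69) and PargA-2 (11.73) lay below every WT embryo and PargB-2 (12.12) above every one. At least 2 embryos lay below every WT embryo for 14.8% of all probe sets, and at least 1 above for 60.7%. The genotype difference was -0.02 ± 0.06 (adjusted p = 0.896 by limma), and its sign turned to 0.051 without the embryos of PargA.

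Socs2, whose protein restrains growth hormone signalling (probe set 10372069, chr10:95383903-95417321), ran from 6.05 to 6.73 in WT (median 6.37) and from 5.96 to 6.65 in Parg(110)-/+ embryos (median 6.39). PargB-2 (5.96) and PargA-1 (5.99) were below the WT range, as at least 2 embryos were for 14.8% of all probe sets. The difference was -0.07 ± 0.11 (adjusted p = 0.827 by limma). A further probe set that is also annotated to Socs2 (10394674) correlated with 10372069 at r = 0.20 over 18 embryos. Probe sets of this array are numbered by chromosome and strand along the genome, and of the 20 probe sets that neighbour 10394674 in number (10 on each side) none lay on chromosome 10, that of Socs2, and 17 lay on chromosome 12, while 19 of the 20 neighbours of 10372069 lay on chromosome 10. The probe positions themselves were not used here, so what 10394674 reads was not settled.

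Socs3 lies on the minus strand at chr11:117966079-117970336, and its probe sets gave different pictures. Through probe set 10393449, which has the higher mean and is annotated with the RefSeq transcript of Socs3, no Parg(110)-/+ embryo stood above the WT range. The WT1 embryos had values of 8.23, 8.24 and 8.28, the WT2 embryos 8.05, 7.75 and 8.04, and the WT3 embryos 8.29, 7.73 and 8.85. The PargA embryos had 8.56, 8.60 and 7.59, the PargB embryos 8.36, 8.22 and 8.37, and the PargC embryos 7.96, 8.39 and 7.13. The highest embryo was WT3-3, which alone set the top of the WT range, since the next WT embryo, WT3-1, was at 8.29. PargA-1, PargA-2, PargB-1, PargB-3 and PargC-2 lay above every WT embryo but WT3-3. The lowest were PargC-3 and PargA-3, which lay below every WT embryo. At least 2 embryos below every WT embryo were found for 14.8% of all probe sets. The mean was 8.16 ± 0.33 (SD, n = 9) for WT against 8.13 ± 0.49 (SD, n = 9) for Parg(110)-/+ embryos. The difference of -0.03 ± 0.19 turned to 0.016 after a second quantile normalization and to 0.12 without the embryos of PargC.

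The high single embryos appeared through the other probe set, 10383010. It read 6.85, 6.50 and 6.90 in the WT1 embryos, 6.59, 6.62 and 6.81 in the WT2 embryos and 6.93, 6.52 and 6.92 in the WT3 embryos. It read 7.59, 9.86 and 7.57 in the PargA embryos, 8.11, 6.79 and 6.89 in the PargB embryos and 8.58, 7.25 and 6.60 in the PargC embryos. Of the 9 Parg(110)-/+ embryos, 6 lay above every WT embryo (PargA-1, PargA-2, PargA-3, PargB-1, PargC-1 and PargC-2), which was so for 1.95% of all probe sets. PargA-2 was 3.12 above the WT mean (8.71-fold), PargC-1 was 1.84 above (3.59-fold) and PargB-1 was 1.37 above (2.59-fold). PargB-2, PargB-3 and PargC-3 lay within the WT range. All 3 PargA embryos were high, as were 2 of PargC and 1 of PargB, and the family means exceeded the WT mean by 1.60, 0.74 and 0.53. The genotype difference was 0.96 ± 0.33, and 0.68 without PargA-2. These values led to the choice of the genes, so no test is given. The SD was 0.18 in WT and 1.03 in Parg(110)-/+ embryos, a ratio of 5.79. The share of 1.95%, the genotype difference and this ratio come from the values that led to the choice. They are a description and no support for a difference.

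**Figure D3:**
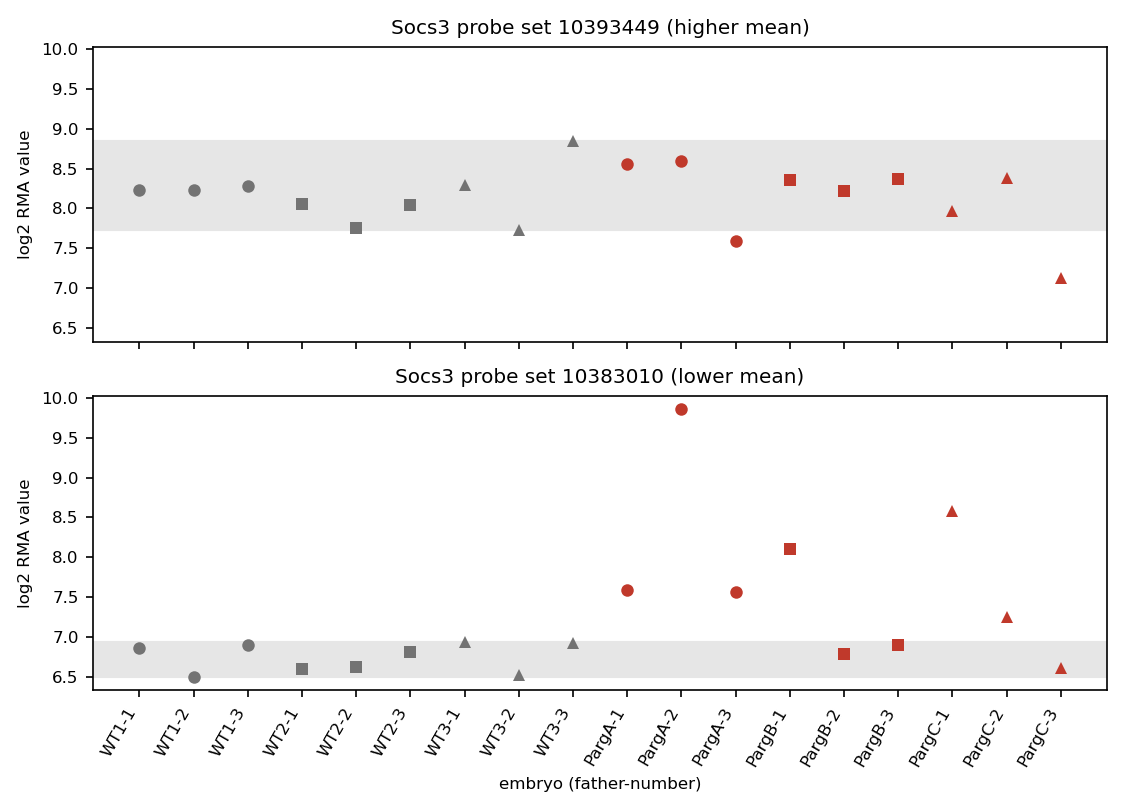
Log2 RMA values of the 2 probe sets annotated to Socs3 in each of the 18 embryos, WT in grey and Parg(110)-/+ in red, with the WT range shaded and both axes spanning the same values. PargA-2, PargC-1 and PargB-1 stand at 9.86, 8.58 and 8.11 in the lower panel and at 8.60, 7.96 and 8.36, within the WT range, in the upper panel.

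The values of the Socs3 probe sets were loosely related. Over 18 embryos they correlated at r = 0.31 (Spearman's rho 0.49), and r was 0.31 without PargA-2 and PargC-1. All 20 neighbours in number of each probe set lay on chromosome 11. Of the neighbours with a known strand, 14 of 14 were on the plus strand for 10383010 and 14 of 14 on the minus strand, the strand of Socs3, for 10393449. Probe set 10383010 is tied to Socs3 by 1 sequence entry that is not a RefSeq transcript, and whether it reads the sense strand of Socs3 was not settled with the tables used here. The genes on either side were compared in PargA-2, PargB-1 and PargC-1. Pgs1, the gene of a mitochondrial phospholipid synthase, begins 15961 bases beyond Socs3 on the plus strand and lay within its WT range (8.46 to 9.24) in all 3 (8.54, 8.67 and 8.80). Tmem235 was at 7.31, 7.66 and 7.41 (WT up to 7.47), so that PargB-1 lay above WT. Of the genes beside 10393449, Tha1 was at 7.02, 7.04 and 7.36 (WT up to 7.28) and Dnah17 at 6.54, 6.64 and 6.75 (WT up to 6.64), so that PargC-1 exceeded WT for both and PargB-1 for Dnah17 by under 0.01.

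In the 3 embryos with the highest values of 10383010, the other genes of the pathway lay on no common side of the WT range. In PargA-2, Il6st, Jak1 and Ptpn11 lay below the WT range and the other 7 genes within it. In PargB-1, Il6st (10.64) and Jak1 (10.26) lay above the range and the other 8 genes within it. In PargC-1 only Stat3 (9.10) left the range, upwards. The mean deviation of the 21 STAT3 target genes from their own means was 0.05, -0.03 and 0.04 in PargA-2, PargB-1 and PargC-1, within the span of the WT embryos (-0.15 to 0.09). Such a mean can hide single targets that left the WT range on opposite sides. For PargA-2 and PargB-1 an example from each side is given, not every such target. In PargA-2, Myc was at 10.28 (WT 6.59 to 9.10, not called) and Hif1a at 8.20 (WT 9.02 to 9.78). In PargB-1, Ccnd1 was at 6.78 (WT 6.18 to 6.56) and Mcl1 at 9.04 (WT 10.17 to 10.76). In PargC-1 more targets left the range upwards than downwards. Klf5 was at 8.89 (WT 7.43 to 8.42), and Tfcp2l1, Pim3, Bcl3 and Mcl1 also lay above every WT embryo. Only Klf4 lay below, at 7.75 (WT 7.82 to 9.21).

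Markers of other cells were compared in the same embryos. The mean deviation of the 17 cumulus, granulosa and oviduct markers was 0.14, 0.18 and 0.10 in PargA-2, PargB-1 and PargC-1, while WT embryos spanned -0.21 to 0.05 and Parg(110)-/+ embryos -0.06 to 0.21. The highest of these, PargB-2, had 10383010 at 6.79. These list means rest in part on single genes far above WT. They were Inhba in PargA-2 (8.42, WT up to 6.51), Krt8 in PargB-1 (9.84, WT up to 7.78) and Krt18 in PargB-2 (8.44, WT up to 6.22). The means were not computed without those genes, so they do not show a shift of the whole list. The 8 blood cell markers deviated by 0.01, 0.05 and 0.12 (WT -0.18 to 0.06). Between genotypes, 16 of 17 of the first list and 8 of 8 of the second were higher in Parg(110)-/+ embryos and 0 were called. So were 9 of 9 spermatid markers, with 0 called, and 19337 of all 28815 probe sets were higher. With equal array medians the counts were 15 of 17, 8 of 8 and 8 of 9, against 13843 of 28815. The part of cumulus, granulosa, oviduct or blood cells in the Socs3 values was not tested. More cells of a type cannot be told apart from more RNA per cell in these embryos.

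**Figure D4:**
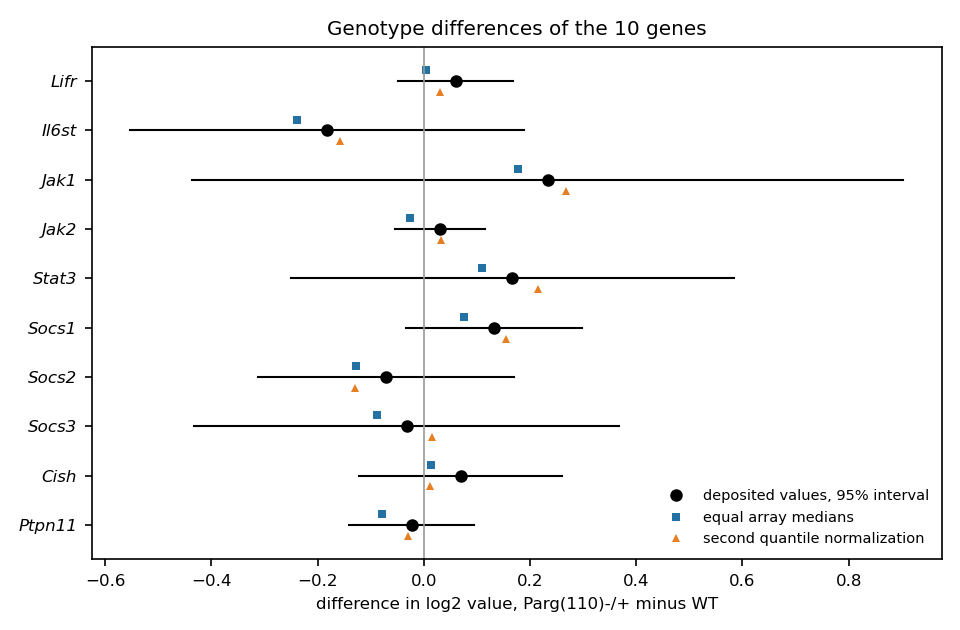
Difference between Parg(110)-/+ and WT embryos (horizontal axis, log2 units) for each of the 10 genes, as deposited with the 95% interval (black), with equal array medians (blue squares) and after a second quantile normalization (orange triangles). Every interval includes 0, and the sign of Jak2 or Socs3 depends on the scaling.

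Each Parg(110)-/+ embryo was also set against the 9 WT embryos, with the spread taken from WT. Across the 9 genes tested and 9 embryos, 0 of 81 comparisons passed an adjusted p of 0.1 in limma, against 0.865% of all comparisons of probe sets and embryos. By embryo, the share of all probe sets called was 0.628%, 0.635% and 0.604% in PargA, 2.17%, 0.691% and 0.826% in PargB, and 0.76%, 0.625% and 0.843% in PargC. At an unadjusted p of 0.05, Jak1 passed in PargA-3, PargB-1, PargB-2, PargC-2 and PargC-3, and Stat3 in PargC-1. These were 6 of 81 comparisons (7.41%), against 7.22% of those of all probe sets. The lowest adjusted p belonged to Jak1 in PargB-2 (0.157, a difference of -1.51 ± 0.34), in PargB-1 (0.250, 1.07 ± 0.34) and in PargA-3 (0.330, 1.24 ± 0.34). Leaving out WT2-1, which had the highest Jak1 of the WT embryos, made Jak1 pass in PargB-1 and PargB-2, so that 2 of 81 comparisons were called. Without WT2-1 the WT spread used for Jak1 also changes. The 0.865% belongs to the fit with all 9 WT embryos, and the share without WT2-1 is not given here. Of the 90 values of the 10 genes in Parg(110)-/+ embryos, 22 (24.4%) lay outside the WT range, against 21.6% of the values of all probe sets.

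By father, the 3 families were set against the same 9 WT embryos. None of the 9 genes was called by limma in PargA (0% of all probe sets called), PargB (0.00694%) or PargC (0.0104%), and at an unadjusted p of 0.05 only Ptpn11 in PargA passed (-0.17 ± 0.07, adjusted p = 0.991), while the shares of all probe sets at that level were 5.01% in PargA, 12.2% in PargB and 6.91% in PargC. Between the 3 fathers of a genotype, 0 genes were called by the F test of limma among WT fathers (0.00347% of all probe sets called) and 0 among Parg(110)-/- fathers (0.0104%). Ptpn11 alone passed the unadjusted level, among Parg(110)-/- fathers (adjusted p = 0.920 by limma over all probe sets), as did 5.34% of all probe sets there and 4.39% among WT fathers. The consensus correlation of embryos within fathers, over all probe sets, was -0.023.

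The genes were next compared with each other over the 18 embryos. Of 36 pairs without Socs3, 0 passed an adjusted p of 0.1 in a two-sided permutation test. By Pearson's r, the strongest pair was that of the kinases, Jak1 and Jak2, with r = 0.60 (permutation p = 0.00917, adjusted p = 0.263) and a Spearman's rho of 0.54 (permutation p = 0.0232, adjusted p = 0.405). It had r = 0.54 without PargB-2 and PargA-3, 0.71 within WT and 0.68 within Parg(110)-/+ embryos. The receptor chains Lifr and Il6st, the strongest pair by rank, had r = -0.53 and rho = -0.59 (permutation p = 0.0246 and 0.0107, adjusted p = 0.263 and 0.385), with r = -0.22 within WT and -0.80 within Parg(110)-/+ embryos. Without WT3-3 the pair of Lifr and Il6st passed the adjusted level, and without PargA-2 that of Jak1 and Jak2 passed it. Socs3 (10393449) had r = -0.14 with Stat3 and r = -0.39 with Il6st, given without a p.

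The genes most like Stat3 over the 18 embryos, among 10264 genes with a probe set mean at or above the median, were Slc9a3r1, a scaffold protein gene (r = 0.81), Ddx3x, an RNA helicase gene (r = 0.78), Zswim8 (r = 0.77), Kctd12 (r = 0.76) and Tob2 (r = 0.75). They stayed between 0.63 and 0.83 without PargC-1 and PargB-3. For Socs3 through 10393449, they were Top1, the gene of DNA topoisomerase I (r = 0.83), Tomm7, part of the mitochondrial import pore (r = 0.76), Stag2, a cohesin subunit gene (r = 0.71), Pdzd11 (r = 0.70) and Tmem30a (r = 0.69). Without PargC-3 and PargA-3 r lay between 0.55 and 0.61. For 10383010 the like genes were Tox, Lpar1, Rtp2, Qprt and 1110006O24Rik (r = 0.87 to 0.79), but r was 0.12 to 0.52 without PargA-2 and PargC-1, so the likeness of most rests on those embryos. These are the highest values among all genes compared and carry no test.

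Outside the 10 genes, 64 further genes of the pathway and its STAT3 targets were measured, and 0 of 64 were called between genotypes by limma (0% of all probe sets). Of these, 38 were higher and 26 lower in Parg(110)-/+ embryos with a median of 0.060, and 7 passed an unadjusted p of 0.05, as did 10.5% of all probe sets. Among the 8 ligands measured, 5 were higher and 3 lower, and the largest differences were those of Ctf1, which encodes cardiotrophin (0.14 ± 0.07, adjusted p = 0.464), and Il11 (0.13 ± 0.10). The ligands Clcf1 and Il27 differed by 0.08 ± 0.05 and 0.06 ± 0.07, and Il27 turned to -0.0011 with equal array medians. Lif itself, singled out after its values were seen, averaged 5.79 in the WT and 5.70 in the Parg(110)-/+ group (-0.09 ± 0.10, adjusted p = 0.750). Among 5 other receptors, Il27ra had the lowest adjusted p of the 64 genes (0.362, 0.21 ± 0.06), Il6ra differed by -0.26 ± 0.21 and Cntfr by -0.06 ± 0.11.

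Of 6 other kinases and STATs, 5 were lower and 1 higher, and with equal array medians all 6 were lower. Stat2, which serves interferon signalling, differed by -0.22 ± 0.20, Stat4 by -0.10 ± 0.54 and Stat5a by -0.01 ± 0.08. Stat4 varied widely in both genotypes (SD 1.30 in WT and 1.10 in Parg(110)-/+ embryos). Of 15 inhibitors, 10 were higher and 5 lower (8 and 7 with equal array medians). The largest differences were those of Ptpn1, the gene of the JAK2-directed phosphatase PTP1B (-0.67 ± 0.30, adjusted p = 0.460), and Pias1, the gene of a SUMO ligase (0.61 ± 0.30, adjusted p = 0.490). Rnf7 differed by 0.36 ± 0.34, Socs7 by -0.08 ± 0.14 and Ptpn2 by 0.01 ± 0.05, a sign that turned to -0.045 with equal array medians.

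Of 9 adaptors, 4 were higher and 5 lower (median -0.18). Pik3r1, a regulatory subunit of PI3 kinase, differed by 0.22 ± 0.09 (adjusted p = 0.447), Map2k2 by -0.32 ± 0.22, Sos1 by -0.27 ± 0.34, Akt1 by -0.18 ± 0.16 and Map2k1 by 0.13 ± 0.18. Of 21 STAT3 targets, 15 were higher and 6 lower (13 and 8 with equal array medians), with a median of 0.107. The targets named by level or difference were Pramel7 (-0.04 ± 0.08), Bcl2l1 (-0.09 ± 0.13), Mcl1 (-0.22 ± 0.18) and Zfp36 (-0.24 ± 0.15), all of them among the lower ones.

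**Figure D5:**
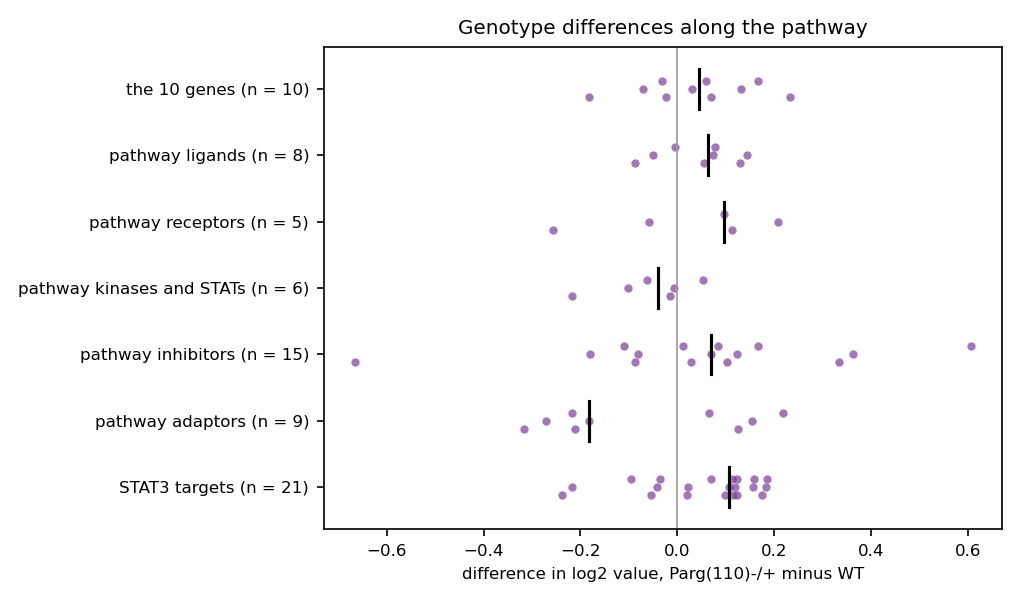
Difference between Parg(110)-/+ and WT embryos in log2 units (horizontal axis) for the 10 genes and for 6 lists of further pathway genes and STAT3 targets. Each point is a gene, its height within a row has no meaning, and the bar is the median of the list. All medians lie between -0.18 and 0.11, and no gene was called.

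In single Parg(110)-/+ embryos against WT, 4 of 576 comparisons of these 64 genes passed the adjusted level (0.694%, against 0.865% of all comparisons). In PargB-1, Sos1, which activates Ras, differed from the WT mean by -2.48 ± 0.51 (7.05 against a WT range of 8.42 to 10.15, adjusted p = 0.0544 by limma). The survival gene Mcl1 differed by -1.36 ± 0.21 (9.04 against 10.17 to 10.76, adjusted p = 0.0116 by limma) in the same embryo, in which 2.17% of all probe sets were called. In PargA-2, the embryo with the highest value of 10383010, Hif1a was at 8.20 against a WT range of 9.02 to 9.78 (adjusted p = 0.0754 by limma). Bcl3 was at 7.27 in PargB-2 against 6.29 to 6.61 in WT (adjusted p = 0.0257 by limma). For these the lone embryo was assumed to vary like the WT embryos.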

How the data were processed

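RNA of single 2-cell embryos was amplified with the WT-Ovation One-Direct kit and hybridised to 1 array per embryo. The deposited log2 values were made by the authors in Partek Genomics Suite with RMA, which corrects background, normalizes by quantiles, takes log2 and summarizes probes into probe sets. No tool version was named in the labels or methods. Array medians ranged from 6.34 to 6.53 and the correlation between arrays from 0.924 to 0.957. RMA compresses differences near background, and the number of arrays limits the precision.

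Probe sets were named from the platform annotation. Of 28815 probe sets, 21780 named 1 gene, 1605 several and 5430 none. Genes were taken from probe sets of 1 gene. Positions came from RefSeq (GRCm38.p6).

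Differences were tested with limma 3.58.1 in R 4.3.3 (lmFit and eBayes, two-sided, Benjamini-Hochberg over all probe sets, threshold 0.1, without a term for father), which was also tested on simulated data. Values with ± in differences are SE. Correlations used 100000 resamples. The 10 genes and all lists were chosen with earlier results of these data known. Further genes were named where called, or as the 3 of highest mean and the 2 of largest absolute difference in each list, and as the 5 most correlated with Stat3 or with Socs3. The labels number embryos within a father, and nothing says that the embryos of a father came from separate litters, so p-values measure the spread between these embryos. Alternatives were 2 scalings, a filter on dim probe sets, father as a random block, means per father, an unmoderated test, the mean over a gene's probe sets, and leaving out each embryo or father in turn. The other probe set of Socs3 was added after the data were seen.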

Additional observations from a re-analysis of the deposited data

Results flagged for a closer look

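In a comparison of the highest and lowest embryo of each genotype with its nearest neighbour, over the 10 probe sets of the genes other than Socs3 and 20 groups, 1 group held an embryo far from the others. Chance gives about 1 in 20. For Cish, WT1-3 (6.69) stood above the next WT embryo (6.23), a gap of 0.577 of the whole WT range.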

How the results depend on the processing

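The 9 genes tested between genotypes were called under none of the alternatives run, and the smallest adjusted p by limma was 0.356 (Socs1 without WT1-3). The counts between families and WT and between fathers stayed at 0. The sign turned for Jak2 with equal array medians (-0.026), and for Socs3 after a second quantile normalization (0.016), as the mean over its probe sets (0.46) and through its other probe set (0.96). Leaving out an embryo or a father gave -0.14 to 0.12 for Socs3, -0.076 to 0.051 for Ptpn11 and -0.19 to 0.033 for Socs2, and the causes were not tested. Leaving out 1 WT embryo gave 0 to 2 calls in single embryos (2 without WT2-1), and leaving out 1 embryo gave 0 to 1 pairs of correlated genes. Of the other values, 333 for single genes kept their direction and their side of the threshold, and 100 counts stayed as they were. No paired analysis was possible because the numbers name embryos within a father and no father is shared by the genotypes. Dim genes such as Lifr limit what these arrays can show, since RMA shrinks their differences.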

Other observations

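Of 19 immediate early and stress genes measured, 14 were higher and 5 lower in Parg(110)-/+ embryos (12 and 7 with equal array medians), with a median difference of 0.095, and 0 were called by limma, with 4 at an unadjusted p of 0.05. Of all 28815 probe sets, 19337 were higher (13843 with equal array medians), 0 were called and 10.5% passed the unadjusted level. In PargC-1, which had the second highest value of probe set 10383010, Nfkbia, the gene of the NF-kappaB inhibitor, was at 7.61 against a WT range of 6.50 to 6.89 (adjusted p = 0.0209 by limma). Each of the 17 cumulus, granulosa and oviduct markers was compared with WT in 9 single Parg(110)-/+ embryos, and 5 of these comparisons were called. Over all probe sets, 2242 of 259335 such comparisons (0.865%) were called. The share was higher among these markers, and that excess was not tested. Of the 5 calls, 3 fell in embryos whose value of 10383010 lay within the WT range. The others fell in PargA-2 and PargB-1, where 10383010 lay above every WT embryo. A link between these calls and 10383010 was not tested. In PargA-2, Inhba, an activin subunit gene and here a granulosa marker, was at 8.42 against 6.36 to 6.51 in WT (adjusted p = 3.59e-06 by limma). In PargB-1, the keratin gene Krt8 was at 9.84 against 7.31 to 7.78 (adjusted p = 0.000195 by limma). In PargB-2, where 10383010 was at 6.79, Inhba was at 7.21 (adjusted p = 0.00472 by limma) and Krt18 at 8.44 against 5.61 to 6.22 in WT (adjusted p = 0.000513 by limma). In PargB-3, where 10383010 was at 6.89, Ptx3 was at 6.06 against 5.36 to 5.62 in WT (adjusted p = 0.0423 by limma). These genes were chosen after their values were seen.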
